A study of Mus musculus with 12 samples.

Results

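The genes described here are 10 genes of major histocompatibility complex (MHC) antigen presentation, measured in the mouse retina in a model of optic neuritis. They were chosen by symbol, without use of their values: the class I heavy chains H2-D1 and H2-K1, the shared light chain B2m, the peptide transporter genes Tap1 and Tap2, the immunoproteasome subunits Psmb8 and Psmb9, the class II chains H2-Aa and H2-Ab1, and the invariant chain Cd74. Each symbol matched 1 Ensembl gene ID, so that the members are 10 of the 54532 gene IDs in the count table. All 10 passed the filter on low counts that left 18299 genes to be tested, although H2-Aa did so with 1 to 27 reads a library.

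Polyadenylated RNA of the retina was sequenced from wild-type C57BL/6 mice of 13 weeks, female as the study's methods give it, in 4 groups of 3 libraries. SHAM was the sham control, and what these mice received was not given in the sources used here. MOG mice were immunized with the MOG35-55 peptide of myelin oligodendrocyte glycoprotein in complete Freund's adjuvant together with pertussis toxin, which induces experimental autoimmune encephalomyelitis with inflammation of the optic nerve. GB20 and GV16 mice were immunized in the same way and were then needled at the acupoint GB20, or at GV16 as the control acupoint. Needling began 3 weeks after immunization and was given every 3 days for 2 weeks under xylazine and ketamine anaesthesia, which the un-needled MOG mice were not stated to have had. Needling and anaesthesia therefore cannot be told apart in a comparison of either needled group with MOG. The methods describe 2 or 3 mice a group in each of 3 repeats and do not say whether a library pooled their retinas, so that the p-values measure the spread between these libraries.

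Class I molecules, a heavy chain paired with B2m, show peptides from inside the cell to CD8 T cells on nearly all nucleated cells. The peptides are cut by the proteasome, in which immune subunits replace constitutive ones under interferon, and are carried into the endoplasmic reticulum by the TAP transporter. Class II molecules show peptides from endosomes to CD4 T cells and belong mainly to professional antigen-presenting cells, where the invariant chain fills their groove until they reach the peptide. Neurons of the resting retina are known for low class I, and microglia are its main resident cells able to present antigen. In bulk tissue, fewer cells of a type and less RNA per cell cannot be told apart.

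Of the members, 8 lie within 1.27 Mb of chromosome 17 in the mouse MHC (GRCm38, the build of the authors' alignment, with GENCODE vM21 gene models). H2-K1 (chr17:33996017-34000347, minus strand) and H2-D1 (chr17:35262730-35267499, plus strand) mark its ends. Between them lie Psmb9 (chr17:34181987-34187764, minus), Tap1 (chr17:34187553-34197225, plus), Psmb8 (chr17:34197721-34201454, plus) and Tap2 (chr17:34203527-34216321, plus), followed by H2-Ab1 (chr17:34257689-34269419, plus) and H2-Aa (chr17:34282744-34287823, minus). B2m (chr2:122147686-122153083, plus) and Cd74 lie outside the complex. Tap1 and Psmb9 stand head to head and share 212 bases, which are 3.87% of the exonic bases of Tap1 and 5.79% of those of Psmb9. Other gene models overlap 18.5% of the exonic bases of Tap2 and 14.7% of those of Psmb8. How the counting treated strand and reads matching several places was not given in the sources used here, so that reads of these overlaps may be split between genes. H2-D1 shared 35 of its 2591 windows of 150 bases (1.35%) with H2-Q1, and no other member shared a window with another gene.

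Class I and class II promoters are known for X and Y boxes, bound by the RFX complex and NF-Y with the transactivators NLRC5 or CIITA, and class I promoters also for a kB-type and an interferon-response element. RefSeq promoter sequences (GRCm38.p6; 250 bases before to 50 after the start) were searched for 7 of the 10 members. Tap2, H2-Ab1 and Cd74 had none there. These 4 letter patterns were searched on both strands, overlaps allowed: AANNGAAA for the interferon-response core, GG and TCCC with 4 bases of any kind between them for the kB type, TGACG for the X2 type and CCAAT for the Y type. Singly they are common, in 23.9%, 20.7%, 20.8% and 37.4% of the 32851 RefSeq promoters. All 4 together were found in 94 promoters (0.286%). Those of 4 of the 7 members searched, H2-D1, H2-K1, B2m and H2-Aa, were among them. Tap1 and Psmb9 held TGACG and CCAAT, a pair found in 7.73% of promoters, and Psmb8 held none of the 4. Tap1 and Psmb9 stand head to head, and by position and strand their matches are the same sites read from opposite sides. Against the 7.73% the pair is therefore not a separate find for each gene. For H2-D1, Tap1, Psmb9 and Psmb8 all 250 bases before the RefSeq start lie within a GENCODE exon, so that the window searched was not wholly outside the gene models there. The stretches that carry the 4 patterns are shown for 1 light chain, 1 class I heavy chain and 1 class II chain, 5′ to 3′ on the strand of the gene with the matches in capitals: B2m on the plus strand at chr2:122147545-122147643, H2-K1 on the minus strand at chr17:34000354-34000463, and H2-Aa on the minus strand at chr17:34287862-34288041.
B2m: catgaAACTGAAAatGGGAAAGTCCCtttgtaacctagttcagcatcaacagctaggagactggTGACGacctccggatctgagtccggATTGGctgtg
H2-K1: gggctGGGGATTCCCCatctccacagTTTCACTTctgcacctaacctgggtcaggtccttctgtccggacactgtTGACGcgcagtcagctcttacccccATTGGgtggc
H2-Aa: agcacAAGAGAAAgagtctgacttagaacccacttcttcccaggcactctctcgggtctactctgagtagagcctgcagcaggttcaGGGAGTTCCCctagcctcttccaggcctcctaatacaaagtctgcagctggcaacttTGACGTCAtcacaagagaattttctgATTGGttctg
In each of the 3, TGACG lies upstream of ATTGG, which is CCAAT read on the other strand. The interferon-response core and the kB-type pattern stand in the opposite order in H2-K1 and in B2m. These are matches of letters and not measured sites.

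The libraries held 15860278 to 19194280 counts and stood close to each other in depth. Every retinal marker gene of the list used for the check of the tissue was detected in each group. GB20 replicate 1, the deepest library, stood apart for the genes described here. It was the highest of its group for 10 of 10 members, where it was the highest of its group for 34.6% of all genes tested, and the highest of all 12 libraries for 7 members against 8.5% of genes tested. GV16 replicate 1 was the highest of its group for 9 of 10 members against 33.5% of genes tested. MOG replicate 2 was the highest of all 12 libraries for Tap2, H2-Ab1 and Cd74. Results that rest on these libraries are given with and without them.

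Compared per length, the members differed widely in level. On the FPKM scale (fragments scaled to gene length and sequencing depth) the mean over 12 libraries was 37.2 ± 10.8 (SD) for B2m, 21.5 ± 2.59 for H2-D1 and 13.7 ± 2.77 for H2-K1. These 3 ranked 1058, 2239 and 3813 among the 18299 tested genes. The transporter genes were far lower, at 1.93 FPKM for Tap2 (rank 12204) and 0.668 FPKM for Tap1 (rank 15253). Psmb8 and Psmb9 stood at 0.910 and 0.412 FPKM, while the constitutive subunits whose place they take, Psmb5 and Psmb6, stood at 58.9 and 41.5 FPKM. The class II genes were also low, Cd74 at 0.891, H2-Ab1 at 0.641 and H2-Aa at 0.248 FPKM, and H2-Aa was the lowest of the 10 at rank 17280. Within every library B2m exceeded H2-D1, by a ratio of at least 1.23, and H2-D1 exceeded H2-K1, by a ratio of at least 1.35. The neighbours Psmb8, Cd74, Tap1 and H2-Ab1 overlapped over libraries and have no clear order.

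**Figure D1:**
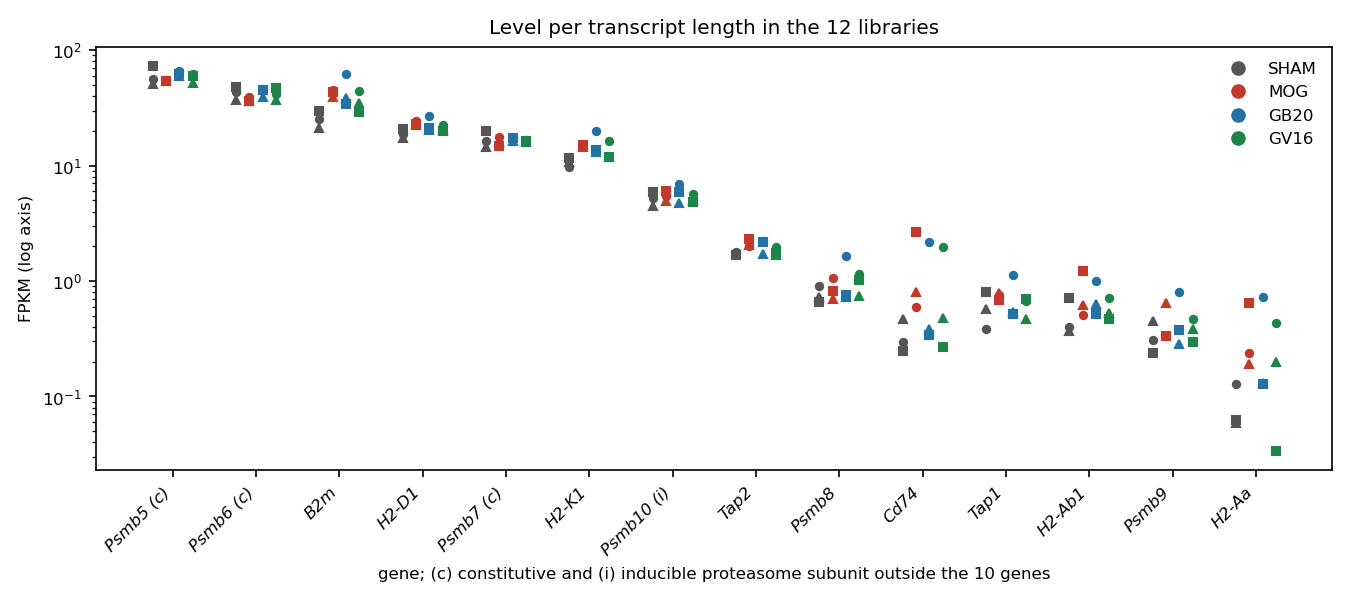
Level in FPKM (log axis) of the 10 genes and of the proteasome subunits Psmb5, Psmb6, Psmb7 (constitutive) and Psmb10 (inducible), 1 point per library with colour by group and shape by replicate number. B2m, H2-D1 and H2-K1 stand at 9.77 FPKM or more in every library, above the other 7 of the 10 genes.

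The first comparison asked what immunization did to these genes in the retina, and the heavy chains and B2m are described first. H2-D1, 1 of the classical heavy chains, had 48.7, 54.3 and 44.8 CPM (counts scaled to library size) in the SHAM libraries and 63.6, 59.4 and 58.6 CPM in the MOG libraries. Every MOG library stood above every SHAM library. The log2 fold change was 0.30 (SE 0.0965, 95% interval 0.10 to 0.50, 1.23-fold), and it missed the threshold over all genes (edgeR quasi-likelihood test, Benjamini-Hochberg adjusted p = 0.165). H2-K1, the other classical heavy chain, had 25.7, 30.6 and 28.5 CPM in SHAM and 39.6, 39.9 and 38.2 CPM in MOG, again without overlap. Its log2 fold change was 0.47 (SE 0.153, 1.39-fold, edgeR adjusted p = 0.201). B2m, the light chain that every classical heavy chain needs at the surface, had 22.2, 25.8 and 18.4 CPM in SHAM and 38.9, 37.5 and 33.9 CPM in MOG. Its groups did not overlap either, and its log2 fold change was 0.74 (SE 0.243, interval 0.19 to 1.28, 1.67-fold, edgeR adjusted p = 0.243).

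The light chain differed by more than the heavy chains. The ratio of B2m to H2-D1, both in FPKM, was 1.34 ± 0.101 (SD, n = 3) in SHAM and 1.82 ± 0.081 in MOG, with a range of 1.23 to 1.43 against 1.74 to 1.90. No test was run on the ratio. The ratio of H2-D1 to H2-K1 in FPKM was 1.76 ± 0.163 in SHAM and 1.56 ± 0.06 in MOG, ranges that overlapped at 1.59 to 1.62. Because heavy chains are alike and reads can be split among them, the counts of 16 class I heavy chain genes were also summed within each library. H2-D1 and H2-K1 are among the 16 and made up most of the sum, with means of 49.3 and 28.3 CPM in SHAM and 60.5 and 39.3 CPM in MOG. The sum is therefore not separate from the values of these genes given above. The sum was 109, 120 and 115 CPM in SHAM and 147, 149 and 151 CPM in MOG. The sum thus lay higher in all 3 MOG libraries, by 0.38 on the log2 scale (SE 0.109, 1.30-fold, edgeR adjusted p = 0.116).

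**Figure D2:**
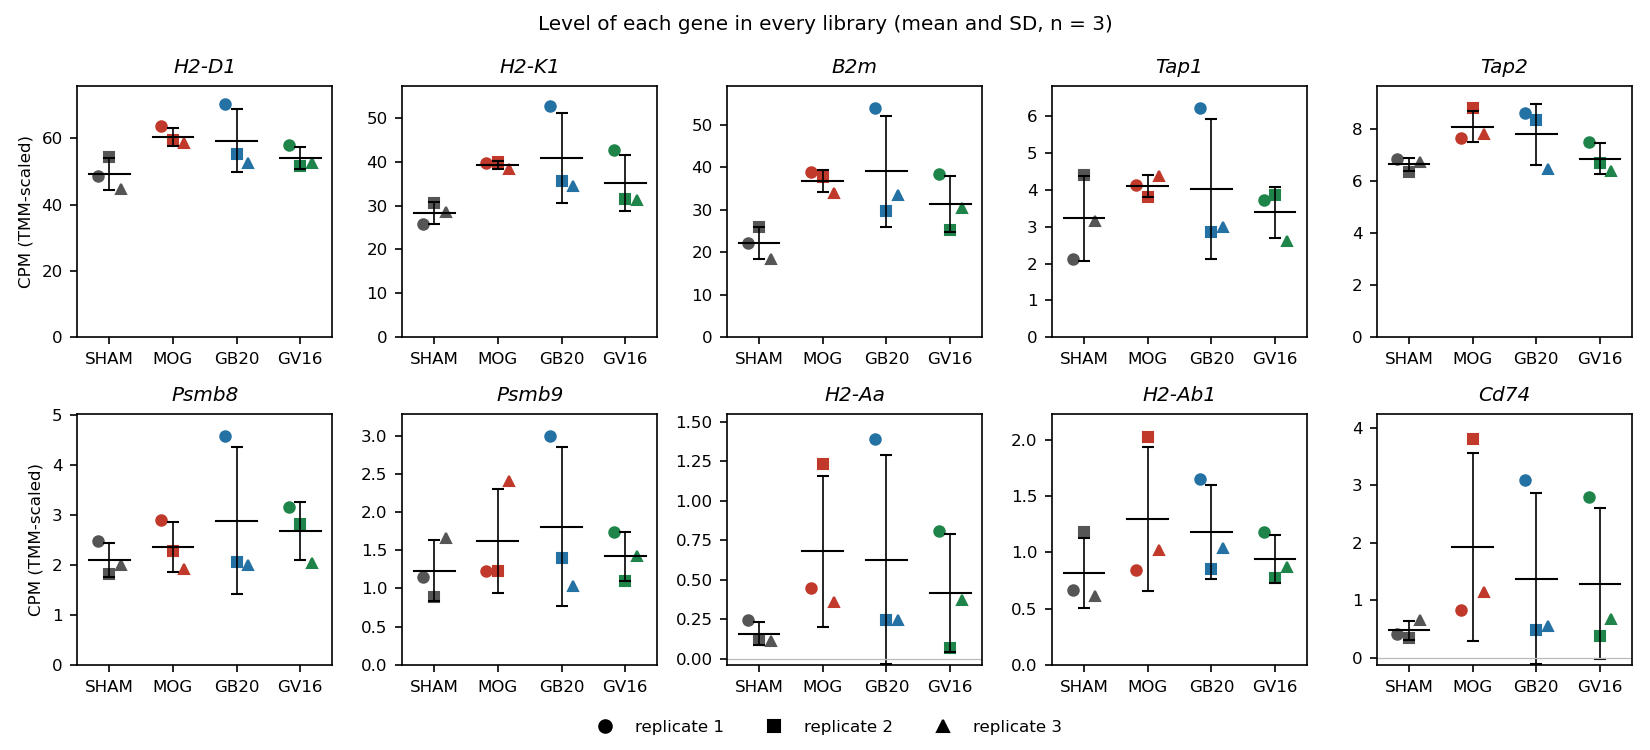
CPM of each of the 10 genes in each library, with 1 panel and 1 axis per gene, 1 point per library, its shape the replicate number, and bars for the group mean and SD (n = 3). In the panels of H2-D1, H2-K1 and B2m the 3 MOG points lie above the 3 SHAM points, and GB20 replicate 1 is the highest GB20 point in all 10 panels.

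Among the peptide supply genes 3 of 4 overlapped between MOG and SHAM. Tap1, 1 subunit of the transporter, had 2.12, 4.41 and 3.16 CPM in SHAM and 4.14, 3.81 and 4.38 CPM in MOG, with overlap (log2 fold change 0.35, SE 0.287, edgeR adjusted p = 0.64). Tap2, its partner, had 6.84, 6.35 and 6.71 CPM in SHAM and 7.67, 8.79 and 7.81 CPM in MOG. All MOG libraries stood above SHAM for Tap2, at a log2 difference of 0.28 (SE 0.143, edgeR adjusted p = 0.401). Psmb8, the subunit that replaces Psmb5 in the immunoproteasome, had 2.48, 1.82 and 2.0 CPM in SHAM and 2.91, 2.27 and 1.92 CPM in MOG. Psmb9, which replaces Psmb6, had 1.15, 0.882 and 1.66 CPM in SHAM and 1.23, 1.23 and 2.40 CPM in MOG. Both overlapped between the groups, at log2 fold changes of 0.18 (SE 0.3) for Psmb8 and 0.38 (SE 0.388) for Psmb9. Against their constitutive counterparts on the FPKM scale, Psmb8 amounted to 1.30% ± 0.353 of Psmb5 in SHAM and 1.57% ± 0.313 in MOG. Psmb9 amounted to 0.813% ± 0.371 of Psmb6 in SHAM and 1.19% ± 0.529 in MOG. The constitutive subunits thus remained far above their immune replacements in both groups.

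The class II genes were counted in few reads and varied most among MOG libraries. H2-Aa, the alpha chain of the I-A molecule, had 4, 2 and 2 reads in SHAM and 8, 20 and 6 reads in MOG. The MOG libraries all stood higher, and the log2 fold change of 2.06 had a wide interval (SE 0.897, 0.17 to 3.95, edgeR adjusted p = 0.319). H2-Ab1, the beta chain, had 11, 20 and 11 reads in SHAM and 15, 33 and 17 reads in MOG, which overlapped (log2 fold change 0.65, SE 0.395, edgeR adjusted p = 0.5). Cd74, the invariant chain (chr18:60803848-60812652, plus strand), had 7, 6 and 12 reads in SHAM and 15, 62 and 19 reads in MOG. Its log2 fold change of 1.97 (SE 1.08, interval -0.48 to 4.42, edgeR adjusted p = 0.49) included 0. For all 3 genes MOG replicate 2 was the highest MOG library, and without it the log2 fold changes were 1.35 for H2-Aa, 0.19 for H2-Ab1 and 1.02 for Cd74. Lyz2, a marker of myeloid cells other than microglia, was 9.95 CPM in MOG replicate 2 and 1.46 and 1.5 CPM in the other MOG libraries, and its part in the class II values was not tested.

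**Figure D3:**
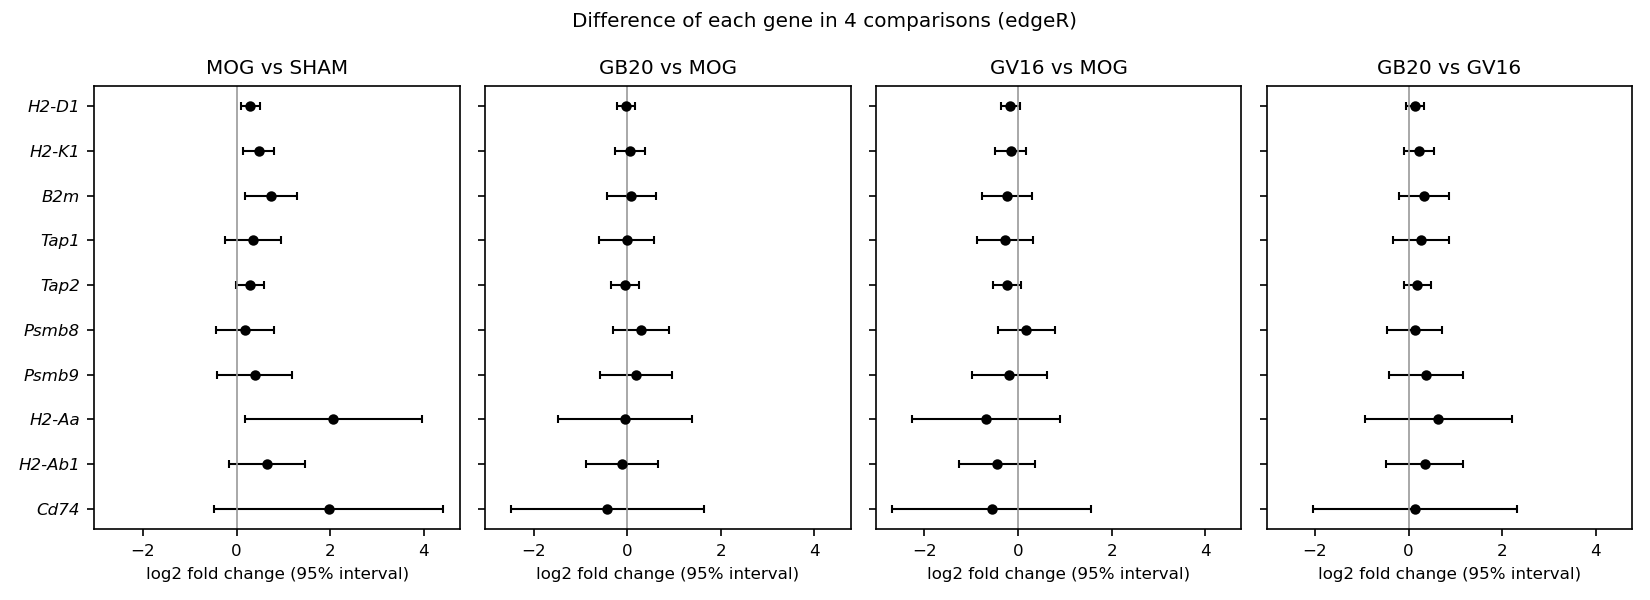
Log2 fold change of each of the 10 genes in 4 comparisons, as points with 95% intervals from the edgeR fit and a line at 0. The intervals of the class II genes H2-Aa and Cd74 are the widest, and in the comparison of MOG with SHAM the intervals of H2-D1, H2-K1, B2m and H2-Aa lie above 0.

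Over the 10 members, all 10 had a log2 fold change above 0 in MOG against SHAM, with a median of 0.43 (0.35 for the 7 genes of class I presentation and 1.97 for the 3 class II genes), where the median of all tested genes was -0.002. No member passed at an adjusted p of 0.05 in edgeR, where 245 genes or 1.34% of those tested did. At an unadjusted p under 0.05 there were 4 of 10 members (H2-D1, H2-K1, B2m and H2-Aa), against 13% of genes tested. The MOG libraries lay wholly above SHAM for 6 of 10 members (the same 4 with Tap2 and Cd74), against 7.87% of genes tested. DESeq2 on 12 libraries and limma-voom called 0 members. DESeq2 on the 6 libraries of the comparison alone called H2-K1 (log2 fold change 0.47, SE 0.112, adjusted p = 0.0037) and B2m (0.74, SE 0.135, adjusted p = 1.8e-05), among 1.44% of the genes it tested. edgeR without GB20 replicate 1, a library that is in neither group but enters the shared estimate of the spread, called H2-K1 (adjusted p = 0.0256) and B2m (adjusted p = 0.0112), among 1.22% of genes. The calls of these 2 genes thus differed between fits. In the reported fit and the alternatives just named that called them, the log2 fold changes were 0.47 for H2-K1 and 0.73 to 0.74 for B2m. On leaving out any 1 library they ran from 0.41 to 0.54 for H2-K1 and from 0.61 to 0.87 for B2m. Over the other alternatives they ran from 0.44 to 0.53 and from 0.73 to 0.80. The 60 other genes tested between H2-K1 and H2-D1 on chromosome 17 had a median log2 fold change of -0.10, with 13 above 0.

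The comparisons of the needled groups with MOG asked whether needling moved the genes away from their level after immunization. For GB20, H2-D1 had 70.2, 55.3 and 52.5 CPM, which spanned the MOG libraries (log2 fold change -0.03, interval -0.23 to 0.17). B2m had 53.9, 29.6 and 33.3 CPM in GB20, with replicate 1 above every MOG library and the other two below every MOG library (log2 fold change 0.09, interval -0.44 to 0.61). H2-K1 had the same arrangement at 52.6, 35.6 and 34.4 CPM, with a log2 fold change of 0.06 (interval -0.26 to 0.38). Class II genes were as divided: H2-Aa had 27, 4 and 4 reads in GB20 and Cd74 had 60, 8 and 9 reads. The log2 fold changes were -0.04 for H2-Aa (interval -1.47 to 1.39) and -0.42 for Cd74 (interval -2.48 to 1.63), intervals that reached beyond 1 on the log2 scale on both sides of 0.

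Tap1 had 6.23, 2.86 and 2.98 CPM in GB20, Tap2 had 8.60, 8.33 and 6.46 CPM, and H2-Ab1 had 32, 14 and 17 reads. Psmb8 had 4.58, 2.07 and 2.01 CPM and Psmb9 had 2.99, 1.40 and 1.04 CPM. GB20 replicate 1 led in each case, and it stood at 1.16 times the mean of the other two for Tap2, 1.30 times for H2-D1, 1.71 times for B2m, 2.46 times for Psmb9 and 5.98 times for Cd74. Of the 10 members, 4 had a log2 fold change above 0 in GB20 against MOG, with a median of -0.02. None passed in edgeR (smallest adjusted p 0.82), DESeq2 or limma-voom, and 0 of 10 reached an unadjusted p under 0.05, against 0.24% and 8% of genes tested. For no member were the GB20 and MOG libraries apart, which was so for 15.7% of genes. Without GB20 replicate 1, 0 of 10 log2 fold changes were above 0 and the median was -0.32. Without MOG replicate 2, 8 of 10 were above 0. The direction of GB20 against MOG thus turned with 1 library on either side.

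For GV16, H2-D1 had 57.9, 51.7 and 52.7 CPM, all below the 3 MOG libraries (log2 fold change -0.16, interval -0.36 to 0.04). Tap2, at 7.51, 6.69 and 6.38 CPM, was also below MOG in all libraries (log2 fold change -0.24, interval -0.53 to 0.06). H2-K1 had 42.6, 31.6 and 31.3 CPM and B2m had 38.4, 25.1 and 30.4 CPM, and both overlapped with MOG. Their log2 fold changes were -0.16 for H2-K1 and -0.23 for B2m (interval -0.77 to 0.30). The class II genes again had 1 high library, with 13, 1 and 6 reads of H2-Aa, 19, 12 and 14 of H2-Ab1, and 45, 6 and 11 of Cd74. Tap1 (3.73, 3.86 and 2.60 CPM) and Psmb9 (1.74, 1.09 and 1.42 CPM) had log2 fold changes of -0.28 and -0.19, and Psmb8 (3.17, 2.83 and 2.04 CPM) of 0.17.

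In GV16 against MOG, 9 of 10 log2 fold changes were below 0 and the median was -0.23. None passed in edgeR (smallest adjusted p 0.992), DESeq2 or limma-voom, where edgeR called 0.164% of genes tested. No member reached an unadjusted p under 0.05, against 5.3% of genes. The 2 members with all GV16 libraries below MOG (H2-D1 and Tap2) stand against 6.45% of genes tested. Without GV16 replicate 1 the median was -0.35 with 1 of 10 above 0, and without MOG replicate 2 it was 4 of 10 above 0. Both comparisons share the MOG libraries, so that the 2 sets of fold changes are not independent.

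**Figure D4:**
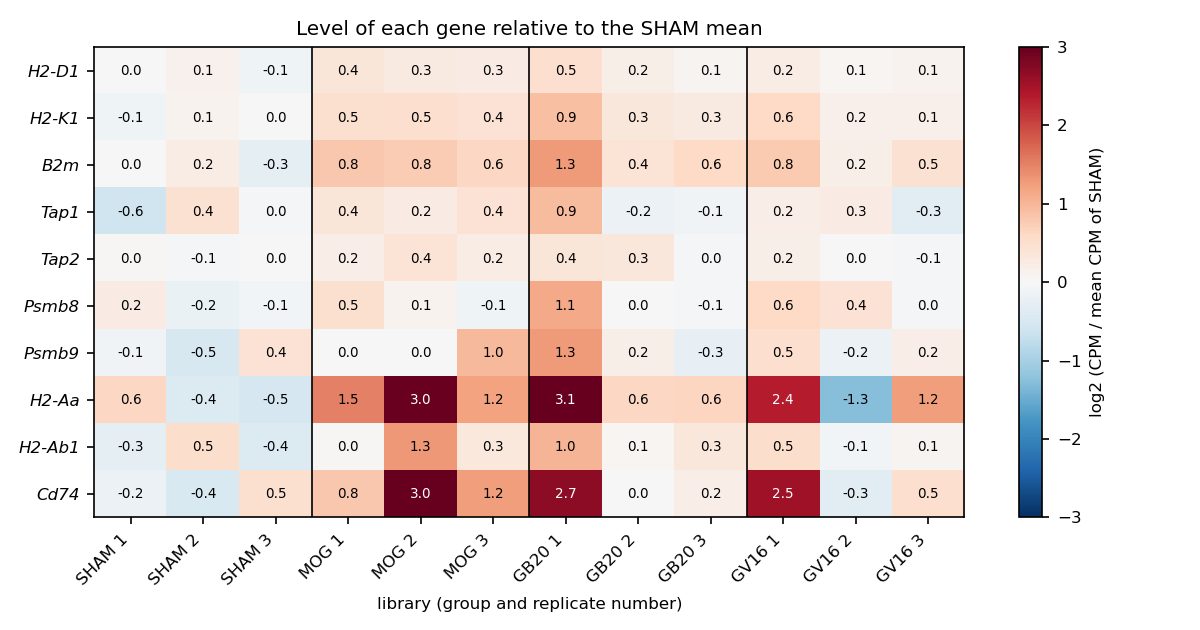
Level of each of the 10 genes in each of the 12 libraries relative to the SHAM mean, as the log2 ratio of CPM in a grid with genes in rows and libraries in columns, where colours end at 3 on either side and each cell gives its ratio. The column of GB20 replicate 1 is positive for all 10 genes, and the largest ratios are those of H2-Aa and Cd74.

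Between the acupoints, all 10 log2 fold changes of GB20 against GV16 were above 0, from 0.13 for Psmb8 to 0.64 for H2-Aa, with a median of 0.24. None passed in edgeR (adjusted p = 1 for each), DESeq2 or limma-voom, where edgeR called 1 gene or 0.00546% of those tested. There were 0 of 10 at an unadjusted p under 0.05, against 2.93% of genes, and 0 of 10 with groups apart, against 8.34%. H2-K1 gave 0.22 (interval -0.10 to 0.55) and B2m gave 0.32 (interval -0.21 to 0.85). Without GB20 replicate 1, 3 of 10 were above 0 and the median was -0.11, so that the common direction rested on that library.

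Against SHAM, both needled groups had 10 of 10 log2 fold changes above 0. For GB20 the median was 0.54, with 0.27 for H2-D1, 0.53 for H2-K1, 0.82 for B2m, 2.02 for H2-Aa and 1.54 for Cd74. edgeR called 0 of 10, against 0.344% of genes, and 4 of 10 (H2-D1, H2-K1, B2m and H2-Aa) reached an unadjusted p under 0.05, against 9.06%. The GB20 libraries lay wholly above SHAM for H2-K1, B2m and H2-Aa, 3 of 10 against 5.66% of genes. For H2-Aa this rested on the scaling to library size. GB20 replicates 2 and 3 and SHAM replicate 1 each had 4 reads of it (0.2432, 0.2436 and 0.2422 CPM). Its log2 fold change went as low as 0.62 on leaving out 1 library. DESeq2 on the 6 libraries compared called H2-K1 (log2 fold change 0.53, adjusted p = 0.0494), among 0.843% of its genes, DESeq2 on 12 libraries called 1 member and limma-voom 0. Without GB20 replicate 1, 7 of 10 were above 0, with a median of 0.14, H2-K1 at 0.31, B2m at 0.51 and Cd74 at 0.09. For GV16 the median was 0.26, with 0.14 for H2-D1, 0.31 for H2-K1 and 0.50 for B2m. edgeR, DESeq2 and limma-voom called 0 of 10, where edgeR called 0.656% of genes, and 0 of 10 reached an unadjusted p under 0.05, against 10.9%. H2-K1 was the 1 member with all GV16 libraries above SHAM, against 6.86% of genes, and without GV16 replicate 1 the GV16 median was 0.11 with 8 of 10 above 0. MOG, GB20 and GV16 were each set against the same SHAM libraries.

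The class I sum of 16 genes, H2-D1 and H2-K1 included, was 188, 132 and 131 CPM in GB20. It was 147, 123 and 130 CPM in GV16, beside 147 to 151 CPM in MOG. The log2 fold change was 0.01 for GB20 and -0.16 for GV16 against MOG, and 0.39 for GB20 (edgeR adjusted p = 0.158) and 0.22 for GV16 against SHAM. GB20 replicate 1 was again the highest of its group. Without it, in fits chosen after seeing the data, the sum gave -0.18 for GB20 against MOG and 0.20 against SHAM (edgeR adjusted p = 0.693), and the difference of MOG from SHAM stayed at 0.38 and was called (edgeR adjusted p = 0.00966). Without GV16 replicate 1 the sum gave -0.24 for GV16 against MOG and 0.14 against SHAM.

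Other genes of the pathway were taken from lists, which describe counts and medians only. Of the other class I heavy chains, 10 were tested in MOG against SHAM and edgeR called 0, DESeq2 and limma-voom 0, with 3 at an unadjusted p under 0.05 (13% of all genes tested) and a median log2 fold change of 0.27. H2-Q7 stood at 0.69, H2-T23 at 0.61, H2-T24 at 0.49, H2-Q4 at 0.39 and Mr1 at 0.37, and H2-Q4, H2-Q7, H2-T23 and Mr1 had all MOG libraries above SHAM, 4 of 10 against 7.87% of all genes. H2-Q1, which shares windows with H2-D1, had 2 reads in all in SHAM and 1 in MOG. The genes of peptide loading and trimming stayed near 0, with a median of 0.01 over 7 genes and values of -0.10 for Tapbp (tapasin), 0.10 for Erap1 and 0.08 for Tapbpl. The immunoproteasome partners had a median of -0.09 over 3 genes (Psmb10 0.06, Psme1 -0.09, Psme2 -0.15). All 7 genes of a list of proteasome genes other than the immune subunits were below 0, with a median of -0.08. The largest were -0.20 for Psmb6, -0.14 for Psmb5 and -0.13 for Psma7. Only Psmb5, Psmb6 and Psmb7 (-0.07) of this list are subunits that immune ones replace, so that it does not describe the constitutive form alone. None of these 3 lists held a call in edgeR, DESeq2 or limma-voom, nor a gene at an unadjusted p under 0.05. Of the class II chains and loading genes, 2 could be tested, H2-Eb1 at 0.81 and H2-DMa at -0.37, neither called.

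Among the regulators in MOG against SHAM, edgeR called 1 of 13 genes, against 1.34% of all genes tested. At an unadjusted p under 0.05 there were 3 of 13, against 13%. The called gene was Nlrc5, the transactivator of class I genes. Nlrc5 stood at 0.848, 0.941 and 0.499 CPM in SHAM and rose to 1.90, 2.21 and 2.52 CPM in MOG, without overlap. The log2 fold change was 1.53 (SE 0.331, 2.89-fold, edgeR adjusted p = 0.0151). It kept its call in 17 of 23 alternatives and lost it in both FPKM fits and without SHAM replicate 1, SHAM replicate 3, MOG replicate 2 or MOG replicate 3, where the edgeR adjusted p lay between 0.0504 and 0.0997. In GB20 Nlrc5 stood at 3.76, 2.37 and 1.83 CPM and was higher than SHAM (log2 fold change 1.81, 3.51-fold, edgeR adjusted p = 0.00871), a call lost in both FPKM fits and without GB20 replicate 1 (0.15), SHAM replicate 1 (0.0506) or SHAM replicate 3 (0.0565), by the adjusted p of edgeR. In GV16 it stood at 1.37, 1.54 and 2.11 CPM (1.13 against SHAM, edgeR adjusted p = 0.158). Ciita, the class II transactivator, had 2.91, 1.59 and 3.05 CPM in SHAM and 3.25, 3.63 and 3.12 CPM in MOG, at a log2 fold change of 0.40 that did not pass. Irf8, a transcription factor of myeloid cells and the interferon response, stood at 0.80 and did not pass.

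Of 6 lysosomal proteases and reductase genes, edgeR called 1 in MOG against SHAM, against 1.34% of all genes tested. This gene was Ctss, the cathepsin that trims the invariant chain in class II compartments. Ctss stood at 8.48, 9.76 and 6.88 CPM in SHAM and rose to 14.4, 16.9 and 18.3 CPM in MOG, and it was 19.7, 13.4 and 13.2 CPM in GB20 and 17, 16.2 and 14.8 CPM in GV16. All 9 libraries of immunized mice lay above all 3 of SHAM. The log2 fold changes against SHAM were 0.98 for MOG (1.98-fold, edgeR adjusted p = 0.0015), 0.89 for GB20 (edgeR adjusted p = 0.00961) and 0.93 for GV16 (edgeR adjusted p = 0.00483). The calls in MOG and GV16 held in 21 of 23 alternatives, all but the 2 FPKM fits. That in GB20 was also lost without GB20 replicate 1, SHAM replicate 1 or SHAM replicate 3 (edgeR adjusted p 0.0565 to 0.127). Ctsb at -0.10 and Ctsd at -0.12, general lysosomal proteases, were not called.

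Genes that interferons induce were measured as a list of 34, of which 31 were tested. In MOG against SHAM 30 of 31 had a log2 fold change above 0, with a median of 0.54, and 19 had an unadjusted p under 0.05, where 13% of all genes tested did. edgeR called 1 of 31, against 1.34% of all genes, Oas2, which senses double-stranded RNA (2.86 on the log2 scale, 7.26-fold, edgeR adjusted p = 0.00133). DESeq2 called 3 on 12 libraries and 5 on 6 libraries, and limma-voom called 3. Gbp2, a guanylate-binding protein, stood at 1.44 (edgeR adjusted p = 0.053) and Cxcl10, a chemokine for T cells, at 2.10 (edgeR adjusted p = 0.139). Summed over the list, the interferon targets were 189 to 238 CPM in SHAM, 251 to 313 in MOG, 229 to 318 in GB20 with replicate 1 the highest, and 203 to 254 in GV16. Oas2 had 2.46, 1.84 and 1.74 CPM in MOG and fell to 0.876, 0.182 and 0.426 CPM in GB20 (log2 fold change -1.97, edgeR adjusted p = 0.0364) and to 0.248, 0.450 and 0.124 CPM in GV16 (-2.86, edgeR adjusted p = 0.0059). The GB20 call was lost without any 1 of the MOG libraries or without GB20 replicate 2 or 3 (edgeR adjusted p 0.0924 to 0.262). The GV16 call did not hold on dropping GV16 replicate 1 or 3, or MOG replicate 1 (edgeR adjusted p 0.0519 to 0.0563). Both FPKM fits lost the GB20 call and the fit on log2(FPKM + 0.1) lost the GV16 call, and DESeq2 gave Oas2 no adjusted p in either comparison. Oas2 was the 1 gene of all the lists that edgeR called in either needled group against MOG, while DESeq2 on the 6 libraries compared called 1 retinal and 1 gliosis gene in GV16 against MOG. No listed gene was called between GB20 and GV16 by edgeR, DESeq2 or limma-voom. Of a list of interferons, their receptors and the kinases of these receptors 7 were tested. edgeR, DESeq2 and limma-voom called 0 of these, with 0 at an unadjusted p under 0.05 (Jak2 0.14, Ifnar2 -0.11, Jak1 -0.06). The 3 tested genes of the costimulation list, Icosl at 0.59, Cd274 (a coinhibitory ligand) at 0.42 and Cd80 at 0.25, were not called.

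**Figure D5:**
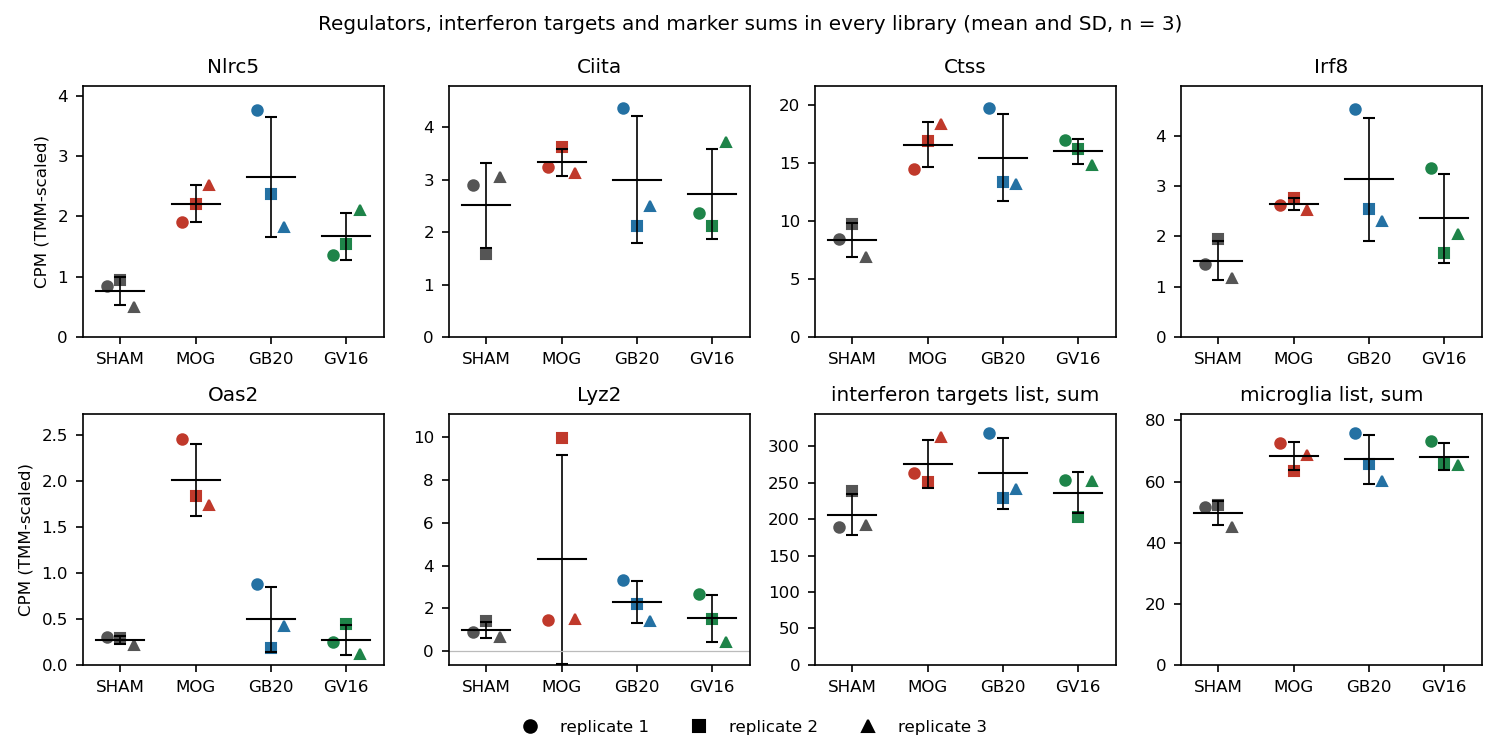
CPM of Nlrc5, Ciita, Ctss, Irf8, Oas2 and Lyz2 and the summed CPM of the interferon target and microglia lists, with 1 point per library, its shape the replicate number, and bars for the group mean and SD (n = 3). Nlrc5 and Ctss lie above SHAM in all 3 MOG libraries, and the 3 MOG points of Oas2 lie above all others.

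Markers of cell types were also read in these libraries. Of 13 microglial markers all had a log2 fold change above 0 in MOG against SHAM, with a median of 0.41. At an unadjusted p under 0.05 there were 5 of 13, against 13% of all genes tested, and edgeR called 2, against 1.34%. The called genes were Csf1r (0.59, edgeR adjusted p = 0.0269), the growth factor receptor of microglia, and C1qa (0.99, edgeR adjusted p = 0.0451), a complement subunit. Csf1r kept its call in 16 of 23 alternatives and C1qa in 11. That of Csf1r was lost in DESeq2 and edgeR on the 6 libraries compared and in both FPKM fits. It also did not hold on dropping MOG replicate 1 or 3, or SHAM replicate 3 (edgeR adjusted p 0.0769 to 0.122). That of C1qa was lost in edgeR on the 6 libraries compared and in both FPKM fits. It held without SHAM replicate 2, GB20 replicate 1 or GB20 replicate 3 and was lost without any other library (edgeR adjusted p 0.0501 to 0.227). Ptprc stood at 1.04 and Itgam at 0.92, neither called. Summed over the list, microglial markers were 45.2 to 52.2 CPM in SHAM, 63.5 to 72.8 in MOG, 60.1 to 76.0 in GB20 and 65.3 to 73.3 in GV16. The highest library of GB20 and that of GV16 was replicate 1, as it was for 10 and for 9 of the 10 members. In MOG the sum was lowest in replicate 2 (63.5 CPM), the MOG library that was highest for the 3 class II genes. The part of microglia in the members' values was not tested. Of 12 markers of other myeloid and dendritic cells 5 were tested and edgeR, DESeq2 and limma-voom called 0. At an unadjusted p under 0.05 there was 1 of 5, against 13% of all genes tested. All MOG libraries lay above SHAM for 2 of 5, against 7.87% of genes, and below SHAM for 2 of 5, against 8.34%. Lyz2 stood at 2.10, Ms4a7 at 0.84 and Flt3 at -0.50. The sum of this list was 13.3 to 14.2 CPM in SHAM, 13.2 to 14.0 in GB20 and 12 to 13.2 in GV16. In MOG it was 13.6, 13.7 and 21.9 CPM, where the highest was replicate 2. Lyz2 alone made up 9.95 CPM of the sum in MOG replicate 2. Of the other tested markers, Xcr1 and Ms4a7 were the highest of MOG in that library, and Flt3 and Zbtb46 the lowest. T cell markers summed to 1.03 to 1.41 CPM in SHAM, 1.17 to 2.40 in MOG, 1.46 to 2.32 in GB20 and 1.29 to 2.72 in GV16. Cd3d, Trbc1, Trbc2 and Cd2 were at 0 in SHAM, and 1 of 12, Lck at 0.77, could be tested. Of 6 B cell markers 1 was tested (Ighm 0.28), and Ms4a1, which defines B cells, was at 0 in every group. The 8 vessel markers had a median of -0.03, with 4 of 8 above 0 and no call by edgeR, DESeq2 or limma-voom. Cdh5 stood at -0.29, Esam at -0.24 and Tek at -0.24. Flt1, at 0.17, was the 1 marker of 8 at an unadjusted p under 0.05, against 13% of all genes tested. It was also the 1 with all MOG libraries above SHAM, against 7.87%. Of the 12 retinal markers, edgeR called 3 in MOG against SHAM, against 1.34% of all genes, and 5 had an unadjusted p under 0.05, against 13%. The called genes Pou4f1, Rbpms and Slc17a6, all known in retinal ganglion cells, fell in MOG, by 1.03, 0.64 and 0.58 on the log2 scale. Pou4f1 kept its call in 21 of 23 alternatives, Rbpms in 18 and Slc17a6 in 17, the latter pair losing it on dropping MOG replicate 2 or 3, or SHAM replicate 1, and Slc17a6 also without SHAM replicate 2 (edgeR adjusted p 0.0962 to 0.167). Of 6 gliosis genes edgeR called 3, against 1.34% of all genes, and 5 had an unadjusted p under 0.05, against 13%. The called genes Gfap, Serpina3n and Stat3 rose, at 1.25, 2.08 and 0.71.

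Genes whose pattern over the 12 libraries was most like that of the members were listed by Pearson r, as a description. For the mean of the 7 class I presentation genes they were Irf8 (r = 0.92), Galnt1 (0.90), Igtp (0.88), H2-Q4 (0.88) and Irgm1 (0.88). For the mean of the 3 class II genes they were Gm9967 (0.90), the complement gene C3 (0.89), Gm3365 (0.84), Prmt3 (0.83) and Gm4285 (0.83). The points are 12 libraries of 4 groups, so that differences between groups and the high GB20 replicate 1 enter every r.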

How the data were processed

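Retinal RNA-seq libraries of the 4 groups were analysed (3 a group). The authors aligned reads with HISAT2 2.0.5 to mm10, as the submitters' processing notes name, and counted them with FeatureCounts; the annotation release, strand setting and treatment of multi-mapping reads were not given in the sources used here. The deposited count tables hold whole reads per Ensembl gene. The deposited FPKM tables hold the authors' values scaled to gene length and sequencing depth, and served for levels between genes. Of 54532 IDs, 54495 were found in GENCODE vM21 and the other 37 held 0.0115% of counts.

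Counts of 15860278 to 19194280 per library were tested with edgeR 4.0.16 (R 4.3.3): TMM scaling, filterByExpr, robust quasi-likelihood fits over 12 libraries (8 residual degrees of freedom), two-sided contrasts, Benjamini-Hochberg adjustment over 18299 genes and calls at an adjusted p under 0.05. Alternatives were DESeq2 1.42.0, limma 3.58.1 with voom or on log2(FPKM + 1) and log2(FPKM + 0.1), no filter, a replicate block, a gene-length offset and leaving out each library. On simulated counts for MOG against SHAM over 18028 genes, 145 of 200 genes with 2-fold changes were recovered (72.5%), with 10 false calls.

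Named genes were the 10 members, every listed gene called in MOG against SHAM or in the comparisons of the immunized groups, the 3 of each list with the largest change in MOG against SHAM, relatives sharing reads, and the 5 most alike by correlation. Other listed genes, and the called listed genes of the comparisons with SHAM, were named after their values were seen. The members, lists and motifs were chosen with earlier results of these data known, and the lists are those whose counts the report gives.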

Additional observations from a re-analysis of the deposited data

How the results depend on the processing

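In GB20 against MOG, GV16 against MOG, GB20 against GV16 and GV16 against SHAM, 0 of 10 members were called in the reported fit and all 23 alternatives. In MOG against SHAM, where edgeR called 0, the count was 2 without the low-count filter (H2-D1 and H2-K1, among 1.56% of genes), 2 for DESeq2 and 2 for edgeR on the 6 libraries compared (H2-K1 and B2m, among 1.44% and 1.11%), and 1 with the gene-length offset (H2-D1, among 1.71%), and leaving out 1 library gave 0 to 2. In GB20 against SHAM, 1 member was called without the filter (0.816% of genes), 1 by DESeq2 on 12 libraries (0.924%) and 1 on 6 (0.843%), and 0 on leaving out any library. Over alternatives the adjusted p in MOG against SHAM ran from 0.00499 to 0.449 for H2-D1, from 0.000255 to 0.505 for H2-K1 and from 1.8e-05 to 0.564 for B2m. The causes were not tested. Of 1353 member values 43 changed sign, 0 of them called and 14 without GB20 replicate 1.

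Same-numbered libraries correlated at -0.096 to 0.324 (median 0.041, 4 of 18 pairs over 0.1). Differently numbered libraries correlated at -0.259 to 0.129 (median -0.029, 3 of 36 pairs over 0.1). These values do not settle whether the numbers pair samples. The reported fit left the libraries unpaired, and the replicate block was an alternative. A fit with the replicate block called 0 members in all 6 comparisons, while over all genes it called 404 in MOG against SHAM instead of 245. With the block and the length offset together, 2 members (H2-D1 and B2m) were called in MOG against SHAM, among 2.43% of genes, and 1 (H2-D1) in GB20 against SHAM, among 1.3%. The 3 libraries a group and 1 to 62 reads a library limit the class II genes most.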
